A study of Mus musculus with 6 samples.

Results

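The miRNAs described here are the products of 2 neighbouring hairpins of mouse chromosome 18, Mir143 and Mir145a. Their main mature forms, miR-143-3p (MIMAT0000247) and miR-145a-5p (MIMAT0000157), were chosen by identifier, and the opposite arm of each hairpin was added as the locus on the same strand within 80 bases, miR-143-5p (MIMAT0017006) and miR-145a-3p (MIMAT0004534). These are 4 of the 2110 mature miRNA loci counted in the series. The pair was chosen with its difference between old and young muscle already known, so that difference is given as a description, with no test. Small RNA had been sequenced from exosomes of mouse muscle, which are small vesicles bounded by a membrane and shed by cells. The 6 libraries fall into 3 of old and 3 of young muscle. The labels give no strain, genotype or treatment for either group. Nor do the sources used here give ages in months or weeks, the sex of the animals, the muscles taken, the vesicle isolation or the number of animals behind a library. The replicates are therefore separate libraries, and the spread between them may be technical. No messenger RNA was measured, so the muscle origin could be read only from miRNAs. miR-206-3p, made in skeletal muscle, had a mean of 56330 CPM (counts scaled to 1000000 per library) in old libraries and 49958 CPM in young libraries. Other striated muscle miRNAs that could be counted were far less abundant. miR-1a-3p had means of 2876 CPM in old and 1753 CPM in young libraries, from 1 of its 2 loci. The other locus overlaps another counted locus and held 0 counts, so this level of miR-1a-3p may be too low. miR-451a of red blood cells had means of 43794 CPM in old and 41976 CPM in young libraries.

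As background, miR-143 and miR-145 are processed from 1 shared primary transcript and are most abundant in the smooth muscle of vessels and hollow organs, where serum response factor and its partner myocardin switch them on. miR-145 represses Klf4 and Klf5 and miR-143 represses Elk1, regulators that hold smooth muscle cells in a dividing state, and both miRNAs are known for favouring the contractile state. In skeletal muscle, whose fibres make little of either, vessel walls, pericytes and fibroblast-like cells are known sources. Of each hairpin, Dicer releases a duplex of 2 arms, of which the guide is loaded into Argonaute and the passenger strand is mostly degraded.

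Some of the miRNAs set beside the pair below are shown with their sequences, because shared sequence decides which of them are separate measurements. The letters are the RefSeq mature sequences on GRCm38.p6, with the seed (bases 2 to 8, which pair with targets) in capitals. The first 4 act on smooth muscle phenotype and the last 2 are abundant in fibroblasts.
miR-26a-5p: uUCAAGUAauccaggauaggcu
miR-27b-3p: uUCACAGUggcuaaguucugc
miR-221-3p: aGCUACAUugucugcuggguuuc
miR-222-3p: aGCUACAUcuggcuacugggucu
miR-199a-3p: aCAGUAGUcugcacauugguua
miR-199b-3p: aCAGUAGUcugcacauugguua
miR-221-3p and miR-222-3p share a seed and are the products of another pair of neighbouring hairpins, on chromosome X, but differ after it and were counted separately. miR-199a-3p and miR-199b-3p are the same sequence, so their 3 loci were summed wherever a ratio to them is given below.

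Both hairpins lie on the minus strand of chromosome 18 in build mm10. Mir143 spans 61649196 to 61649258 (63 bases), with miR-143-3p at 61649199 to 61649219 and miR-143-5p at 61649233 to 61649253. Mir145a spans 61647825 to 61647894 (70 bases), downstream of Mir143 on that strand, with miR-145a-5p at 61647866 to 61647888 and miR-145a-3p at 61647827 to 61647848. A stretch of 1301 bases separates the hairpins. The long non-coding RNA gene Carmn, also called Mir143hg, is their host in RefSeq, where it runs along the same strand from 61645878 to 61665538 and contains both hairpins. In GENCODE release M21 the Carmn model covers 61649625 to 61665537 and stops 366 bases before Mir143, so that neither hairpin lies in one of its exons or introns there. Bvht, a long non-coding RNA gene known from mouse heart muscle development, ends 352 bases before the Mir145a hairpin in GENCODE M21. Each of the 4 arms has a single locus in the table and none overlaps another counted locus, so no count was split between copies or lost to an overlap.

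The libraries held 904892, 1417733 and 1383960 counts in old replicates 1, 2 and 3, against 1459826, 1706396 and 1523331 in young replicates 1, 2 and 3. Old replicate 1 was the shallowest and stood apart in composition: miR-21a-5p took 35.4% of its counts, against 49.0% to 52.9% in the other 5 libraries. CPM values are on library sizes scaled by TMM, a method meant to limit the effect of a few dominant miRNAs. Log2 fold changes are old over young with their standard error (SE). That of miR-143-3p was 0.70 with TMM, 0.71 with library totals alone and 0.58 with totals without miR-21a-5p. CPM values and log2 fold changes are relative to the other miRNAs of a library. A higher share of vesicles from one kind of cell and more of a miRNA per vesicle cannot be told apart in them.

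miR-143-3p was an abundant vesicle miRNA, and its level was higher in old than in young libraries. It had 24558, 25000 and 23508 CPM in old replicates 1, 2 and 3, against 14038, 15009 and 15813 CPM in young replicates 1, 2 and 3. All 3 old libraries lay above all 3 young ones, and old replicate 1, which stood apart in composition, lay between the other old libraries. The means were 24356 ± 767 CPM in old and 14954 ± 889 CPM in young libraries (SD, n = 3 each), a 1.63-fold difference with a log2 fold change of 0.70 ± 0.16 (SE). As raw counts these levels were 24356, 34913 and 30284 in old libraries and 20363, 24949 and 24652 in young libraries. That is 2.69%, 2.46% and 2.19% of all counts in old replicates 1, 2 and 3, against 1.39%, 1.46% and 1.62% in young replicates 1, 2 and 3. The exact 95% binomial intervals of these shares, which cover counting error only, had a lowest bound of 2.16% in old and a highest bound of 1.64% in young libraries. Ranked by counts, miR-143-3p stood at rank 6 in every old library and at rank 9 or 10 in the young ones.

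miR-145a-5p, the guide of the second hairpin, was far less abundant and its groups were not separate. It had 629, 463 and 591 CPM in old replicates 1, 2 and 3, against 353, 491 and 414 CPM in young replicates 1, 2 and 3. Old replicate 2 lay below young replicate 2, so the groups overlapped. The means were 561 ± 86.8 CPM in old and 419 ± 69.1 CPM in young libraries (SD, n = 3 each), with a log2 fold change of 0.42 ± 0.19 (SE). Leaving out 1 library moved this log2 fold change to between 0.27, without young replicate 1, and 0.55, without young replicate 2. Its raw counts were 624, 647 and 761 in old libraries and 512, 816 and 645 in young libraries, at ranks 80 to 92 in old and 90 to 102 in young.

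The passenger arm of the second hairpin, miR-145a-3p, was sequenced from 59 to 90 times per library. Its levels were 72.6, 63.7 and 69.9 CPM in old replicates 1, 2 and 3, against 40.7, 48.7 and 46.8 CPM in young replicates 1, 2 and 3. Every old library lay above every young one. The means were 68.7 ± 4.54 CPM in old and 45.4 ± 4.21 CPM in young libraries (SD, n = 3 each), with a log2 fold change of 0.59 ± 0.24 (SE). The standard error of the change was the largest of the 3 arms, at the lowest counts of the 3.

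miR-143-5p, the passenger arm of the first hairpin, was close to undetected. It had 0, 1 and 0 counts in old replicates 1, 2 and 3, against 0, 2 and 1 counts in young replicates 1, 2 and 3. Its group sums, 1 count in old and 3 in young, did not exceed 3 counts, the limit that a count of 0 allows, so no fold is given. It did not pass the filter on low counts.

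**Figure D1:**
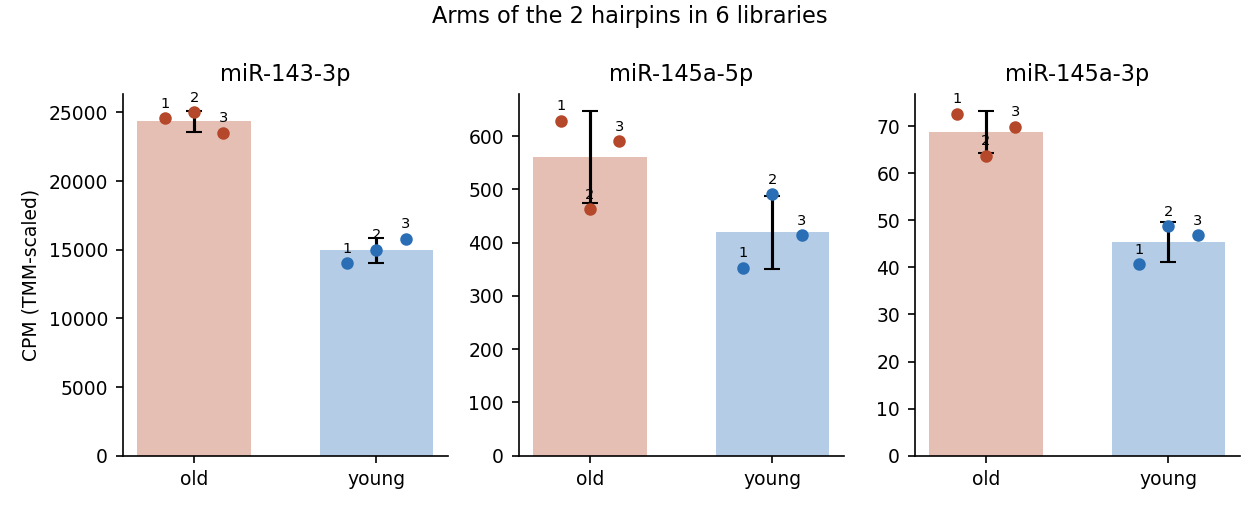
CPM of miR-143-3p, miR-145a-5p and miR-145a-3p, one panel each with its own axis from 0, with old libraries left of young libraries. Points are libraries and bars are the mean and SD of 3. miR-143-3p sits at 23508 to 25000 CPM in old and 14038 to 15813 CPM in young libraries, whereas miR-145a-5p overlaps between groups.

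Of the 4 arms, 3 passed the filter and entered the test across all loci, edgeR's quasi-likelihood test with Benjamini-Hochberg adjustment over 347 loci at a threshold of 0.05. Of those 347 loci, 15 were called, or 4.32%, with 12 higher (3.46%) and 3 lower (0.865%) in old libraries. miR-143-3p was 1 of the 15, and neither arm of Mir145a was. miR-143-3p left the called set without old replicate 2 or without any single young library. Scaled to library totals without miR-21a-5p, 13 loci were called higher and 25 lower, miR-143-3p among the higher ones. The old libraries lay wholly above the young ones at 2 of the 3 member arms, and at 49 of all 347 loci, or 14.1%. In either direction the groups did not overlap at 94 loci, or 27.1%. Because these differences chose the pair, nothing further is read from the counts.

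Measured against loci of like abundance, within 1 unit of average log2 CPM, no locus had a larger log2 fold change than miR-143-3p among 12. For miR-145a-5p, 5 of 47 loci of like abundance had a larger one, and for miR-145a-3p, 11 of 82 did. The pair was chosen with these fold changes known, so their places are a description and lend it no support. The median log2 fold change over all 347 tested loci was 0.04, and 182 of them had a positive sign.

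**Figure D2:**
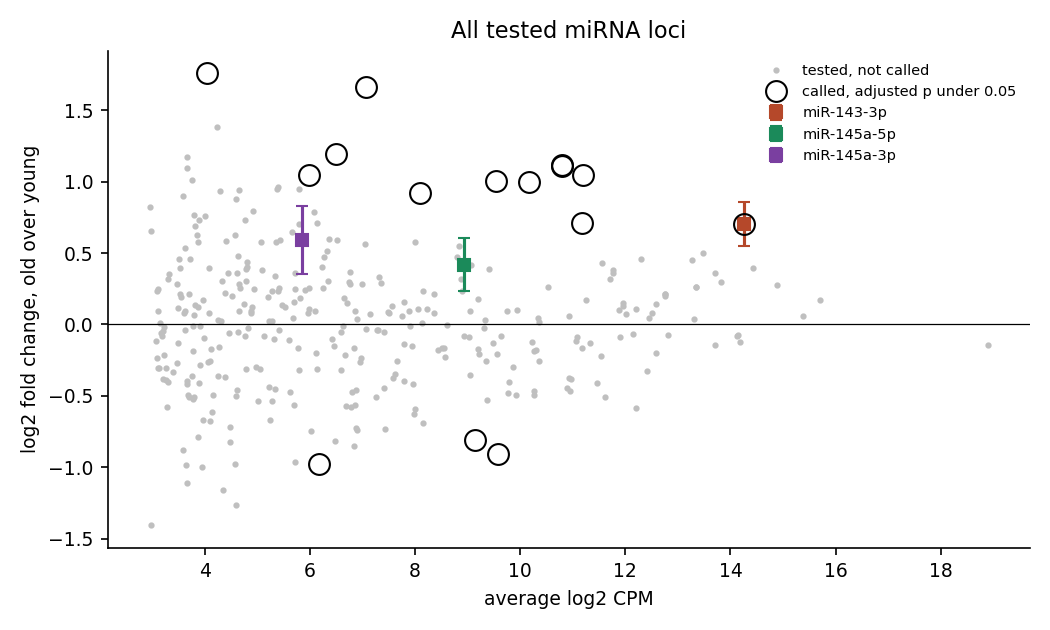
Log2 fold change, old over young, against average log2 CPM for all 347 tested loci. Grey dots are loci that were not called, open circles are the 15 called at an adjusted p under 0.05, and coloured squares with bars are the 3 tested arms with their SE. miR-143-3p at 0.70 lies high among abundant loci. miR-145a-5p at 0.42 and miR-145a-3p at 0.59 lie inside the wider spread of less abundant ones. The pair was chosen with these changes known.

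The spread between replicate libraries differed between the members of the pair. It enters both the call and the separation of groups, so it is not independent of the difference known when the pair was chosen. The pooled within-group SD of miR-143-3p was 0.07 on the log2 scale. Among the 12 loci of like abundance the median SD was 0.18, and 2 had a smaller one. For miR-145a-5p the SD was 0.24, near the median of 0.20 of its 47 loci of like abundance, 30 of which had a smaller SD. Counting alone gives an SD of 0.06 at its mean count. For miR-145a-3p the SD was 0.12, below the 0.16 that counting alone gives, and 1 of 82 loci of like abundance had a smaller one.

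The hairpins of this shared transcript were sequenced at very unequal depth. Each library held 30.6 to 54.0 counts of miR-143-3p for each count of miR-145a-5p. The ratio was 39.0, 54.0 and 39.8 in old replicates 1, 2 and 3, against 39.8, 30.6 and 38.2 in young replicates 1, 2 and 3. Both groups held libraries near 39, the groups overlapped, and the values that departed from it were old replicate 2 above and young replicate 2 below. The exact 95% intervals of those departing ratios, for counting error only, ran from 49.9 to 58.4 in old replicate 2 and from 28.5 to 32.8 in young replicate 2. Neither interval reached the ratio of any other library. The means were 44.3 ± 8.41 in old and 36.2 ± 4.92 in young libraries (SD, n = 3 each), a difference of 0.28 on the log2 scale. Leaving out old replicate 2 brought that difference to 0.13, and leaving out young replicate 2 brought it to 0.17. In the fit across all loci the log2 fold change of miR-143-3p exceeded that of miR-145a-5p by 0.28, and leaving out 1 library moved this between 0.15, without old replicate 2, and 0.37, without old replicate 1. The difference in change between the hairpins was therefore of the size of the spread between libraries and shrank when either replicate 2 library was left out.

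Set against the other arm of Mir145a, miR-143-3p gave a steadier ratio. There were 338, 392 and 336 counts of miR-143-3p for each count of miR-145a-3p in old libraries, against 345, 308 and 338 in young libraries. The groups overlapped, with a difference of 0.10 on the log2 scale. These ratios compare reads of 21-base, 23-base and 22-base miRNAs, a miRNA read as a rule covering the whole mature miRNA, and were not divided by length. How efficiently each sequence enters a library also sets a ratio between miRNAs, and this was not measured.

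All 4 arms together took 2.51 ± 0.259% of counts in old and 1.54 ± 0.117% in young libraries (SD, n = 3 each). miR-143-3p alone was 97.2% to 97.9% of the 4 arms in old and 96.5% to 97.3% in young libraries. The summed level of the locus was thus that of 1 arm in every library.

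The hairpins also differed in how their arms were represented. miR-145a-3p made up 10.3%, 12.1% and 10.6% of the counts of Mir145a in old replicates 1, 2 and 3, against 10.3%, 9.03% and 10.2% in young replicates 1, 2 and 3. The lowest old share exceeded the highest young share only in the second decimal, and the exact 95% intervals of all 6 libraries overlapped. The means were 11.004 ± 0.949% in old and 9.84 ± 0.709% in young libraries (SD, n = 3 each), a difference of 1.16 percentage points. Leaving out old replicate 2 gave 0.617 points, and leaving out young replicate 2 gave 0.754 points. Over all libraries the share was 464 of 4469 counts, or 10.4% (exact 95% interval 9.50% to 11.3%).

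For Mir143 the passenger arm made up 4 of 159521 counts over all libraries, or 0.00251% (exact 95% interval 0.000683% to 0.00642%). In the 3 libraries with 0 counts of miR-143-5p, the limit that a count of 0 allows was 0.0123% and 0.00991% of hairpin counts in old replicates 1 and 3, against 0.0147% in young replicate 1. No difference between the groups was detectable at this depth. Among 62 hairpins with both arms at a single locus, no overlap and at least 3000 counts, the median share of the minor arm was 0.800%. Mir143 had the third lowest share, between Mir34a and Mir23a, and Mir145a the 54th, between Mir34b and Mir34c. The highest share was 41.2%, at Mir872. Hairpins processed from the same transcript thus stood far apart in the order of minor-arm shares.

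**Figure D3:**
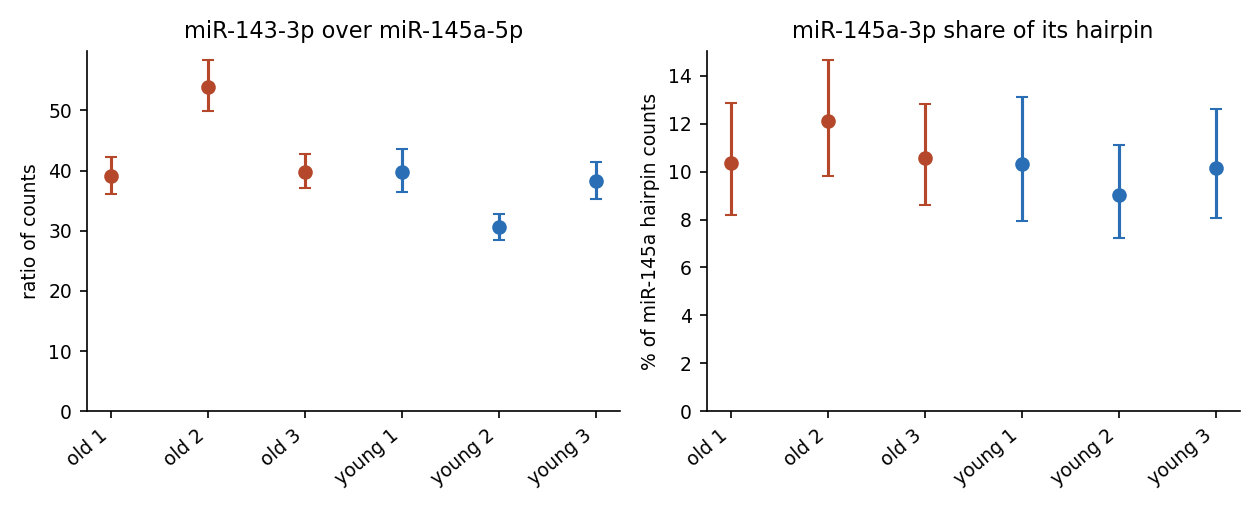
Left, counts of miR-143-3p for each count of miR-145a-5p in each library; right, the share of Mir145a counts that came from miR-145a-3p, in percent. Points are libraries, old left of young, with exact 95% intervals for counting error. The ratio is 38.2 to 39.8 in 4 libraries, 54.0 in old replicate 2 and 30.6 in young replicate 2, and the arm share lies between 9.03% and 12.1%.

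Other neighbouring hairpins show how common such unevenness was. Among tested loci there were 43 pairs of single-copy hairpins next to each other on the same strand with at most 10000 bases between them, a hairpin counting in up to 2 pairs and each represented by its more abundant arm. The median ratio of levels within a pair was 2.87, and 40.1 for miR-143-3p over miR-145a-5p, the sixth largest. The 5 more uneven pairs were miR-451a over miR-144-3p, miR-532-5p over miR-188-5p, miR-93-5p over miR-106b-5p, miR-206-3p over miR-133b-3p and miR-322-5p over miR-503-5p, with ratios from 65.9 to 1650. The 2 hairpins of a pair differed in log2 fold change by a median of 0.27, without regard to sign. The 0.28 between miR-143-3p and miR-145a-5p was thus near the middle, the 20th largest of the 43. Both hairpins had the same sign in 26 of the 43 pairs, these hairpins included.

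**Figure D4:**
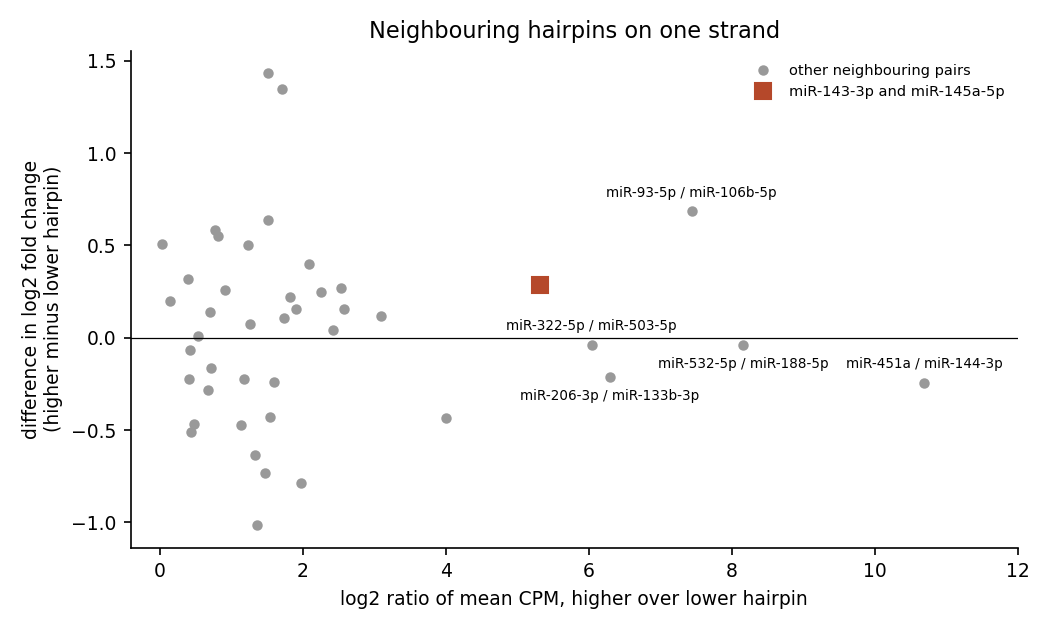
Each of the 43 pairs of neighbouring hairpins by its log2 ratio of mean CPM, higher over lower hairpin, and the difference of their log2 fold changes, old over young. The red square is miR-143-3p with miR-145a-5p and grey dots are other pairs, the 5 more uneven ones labelled. The square lies far to the right of most pairs but at an ordinary height, 0.28.

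The miRNAs whose levels followed each guide most closely over the 6 libraries were different ones. Pearson r of log2 CPM was computed over the 157 loci with a mean of at least 100 CPM, and all 6 points share the group difference and the library scaling, so r is given as a description. For miR-143-3p the highest were miR-378d at 0.98, miR-499-5p at 0.97, miR-378c at 0.96, miR-6240 at 0.95 and miR-133a-3p (Mir133a-2 locus) at 0.90. With the group means removed, these r were -0.14, 0.16, -0.03, -0.33 and -0.56 in the same order, and the loci were picked for a high r over the same libraries. miR-499-5p, made in an intron of a slow myosin gene, and miR-133a-3p are miRNAs of striated muscle.

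For miR-145a-5p the highest were miR-467e-5p at 0.94, let-7g-5p at 0.90, let-7i-5p at 0.88, miR-214-5p at 0.86 and miR-450a-5p at 0.85. With the group means removed they were 0.88, 0.79, 0.77, 0.85 and 0.70, in the same order. These miRNAs were picked for a high r over the same libraries, and miR-145a-5p itself varied largely within groups, so the second set of values is no separate result. Between miR-143-3p and miR-145a-5p themselves r was 0.75, and 0.15 with the group means removed. miR-145a-5p stood 21st in the order of likeness to miR-143-3p, and miR-143-3p 14th in that to miR-145a-5p. Hence the partner hairpin was not among the 5 closest for either.

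Other miRNAs known for acting on smooth muscle phenotype were near the background of all loci. Of 11 such miRNAs, 8 had tested loci, 9 in number. Of these, edgeR's quasi-likelihood test called 0, against 4.32% of all loci, a share at which 0 of 9 is no result about the list. An unadjusted p under 0.05 was found at 2 of the 9, against 78 of all 347 loci, or 22.5%, and DESeq2 called 0 of the 9 and 23 of the 347. Their median log2 fold change was 0.03, against 0.04 over all loci. miR-27b-3p, encoded beside miR-23b and miR-24, had a log2 fold change of 0.30 ± 0.17 (SE) and an edgeR adjusted p of 0.299. It was called higher in old only without old replicate 1. miR-26a-5p, which inhibits smooth muscle differentiation, was at 0.26 ± 0.16 at both of its loci, with edgeR adjusted p of 0.368 and 0.364. miR-21a-5p, induced in injured vessel walls and the most abundant miRNA here, was at -0.15 ± 0.20, with an edgeR adjusted p of 0.769.

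miR-221-3p and miR-222-3p, which favour division of smooth muscle cells and so act opposite to miR-145, are named after their values were seen. miR-222-3p averaged 728 ± 71.1 CPM in old and 1015 ± 152 CPM in young libraries (SD, n = 3 each), without overlap, with a log2 fold change of -0.48 ± 0.17 (SE) and an edgeR adjusted p of 0.139. Its seed partner miR-221-3p averaged 647 ± 241 CPM in old and 633 ± 93.6 CPM in young libraries, with a log2 fold change of 0.03 ± 0.22 (SE) and an edgeR adjusted p of 0.946. miR-222-3p was called lower in old only when libraries were scaled to totals without miR-21a-5p. Of the others in the list, miR-145b, a separate gene, had 5 counts in all libraries together and miR-490-3p had 0. Both loci of miR-24-3p were at 0 and overlap another counted locus, where the authors' counting assigns no read.

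Markers of other cells that muscle vesicles could come from were set beside the pair, since both guides are also known from fibroblasts and pericytes. The fibroblast list (miR-199, miR-214, miR-152 and miR-10b arms) had 10 tested loci, of which 0 were called by edgeR's test, against 4.32% of all loci, and 0 by DESeq2. With so few loci, that is no result about the list. An unadjusted p under 0.05 was found at 4 of the 10, against 22.5% of all loci. Of these 4, 2 were the copies of miR-199a-5p. The median log2 fold change of the list was 0.18. miR-199a-3p was at 0.20 ± 0.16 and 0.22 ± 0.16 (SE) at its 2 loci and miR-199b-3p, the same sequence, at 0.21 ± 0.16, with edgeR adjusted p from 0.496 to 0.531. miR-199a-5p, from the opposite arm, was at -0.47 ± 0.18 and -0.49 ± 0.18, with edgeR adjusted p of 0.139 at both loci. Its sign was opposite to that of miR-199a-3p. Reads of miR-199a-3p can also come from Mir199b, so these are not shown to be the arms of 1 hairpin. Scaled to totals without miR-21a-5p, both miR-199a-5p loci were called lower in old. The list took 2.24% to 2.85% of counts in old and 2.31% to 2.39% in young libraries. Its part in the level of miR-143-3p was not tested.

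The striated muscle list held most of the calls among the lists. Of its 6 tested loci 4 were called higher in old libraries, against 3.46% of all loci, and the median log2 fold change was 0.86. The 2 loci of miR-133a-3p were among the 4, and with copies summed 3 of 5 miRNAs were called. As the list was chosen with earlier results of these data known, this count is a description. miR-133a-3p rose by 1.11 ± 0.18 and 1.12 ± 0.18 (SE) at its 2 loci and miR-499-5p by 1.00 ± 0.16, each with an edgeR adjusted p of 0.0009. miR-1a-3p, a miRNA of heart and skeletal muscle, rose by 0.71 ± 0.18, with an edgeR adjusted p of 0.0285. It was not called without old replicate 2, without any single young library, with library totals alone or with the replicate block, which each left 3 of the 6 loci called. miR-206-3p, the most abundant of the list, was at 0.17 ± 0.22 with an edgeR adjusted p of 0.731. The list took 4.61% to 9.91% of counts in old and 4.95% to 6.26% in young libraries, highest in old replicate 1. This leaves out miR-486a-5p and 1 locus of miR-1a-3p, which overlap another counted locus and held 0 counts. The part of the list in the level of miR-143-3p was not tested.

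Among blood markers 1 locus passed the test. Of the red blood cell miRNAs, 0 of 3 tested loci were called by edgeR's test, against 4.32% of all loci, 0 had an unadjusted p under 0.05, against 22.5%, and DESeq2 called 0. miR-451a was at 0.06 ± 0.16, miR-144-3p at 0.31 ± 0.33 and miR-144-5p at 0.73 ± 0.46 (log2 fold change ± SE), with edgeR adjusted p of 0.857, 0.678 and 0.368. The list took 4.13% to 4.52% of counts in old and 4.03% to 4.36% in young libraries. This leaves out miR-486a-5p, which overlaps another counted locus and held 0 counts. Of the leukocyte miRNAs, 1 of 5 tested loci was called, against 4.32% of all loci, and 3 of 5 had an unadjusted p under 0.05, against 22.5%. The median log2 fold change was 0.11. miR-155-5p, induced in activated immune cells, fell by 0.81 ± 0.18 on the log2 scale, with an edgeR adjusted p of 0.0135, and was not called without old replicate 2 or without young replicate 3. miR-223-3p of myeloid cells and miR-150-5p of lymphocytes were at 0.11 ± 0.18 and 0.09 ± 0.21, with edgeR adjusted p of 0.799 and 0.854. The other 2 loci, named after their values were seen, had the opposite sign to miR-155-5p. miR-142a-5p, made across blood cells, averaged 36.8 ± 16.5 CPM in old and 21.4 ± 3.72 CPM in young libraries (SD, n = 3 each), without overlap. Its log2 fold change was 0.79 ± 0.34 (SE), with an edgeR adjusted p of 0.181. miR-146a-5p, induced in inflammation, averaged 32.7 ± 2.07 CPM in old and 19.7 ± 5.75 CPM in young libraries, without overlap. Its log2 fold change was 0.73 ± 0.32 (SE), with an edgeR adjusted p of 0.181. The leukocyte list took 0.0917% to 0.111% of counts in old and 0.113% to 0.140% in young libraries. This leaves out miR-142a-3p, which overlaps another counted locus and held 0 counts. All 4 endothelial loci, both arms of miR-126a and of miR-126b, were at 0 in every library because they overlap one another, so endothelial signal could not be read.

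Ratios of raw counts within a library do not depend on scaling. These denominators, the leading miRNAs of the lists, were chosen with their values known, and the ratios hold the same difference that chose the pair, so they are given without a test. For each count of miR-199a-3p and miR-199b-3p summed, there were 1.18, 0.978 and 1.14 counts of miR-143-3p in old libraries, against 0.736, 0.780 and 0.803 in young libraries. For each count of miR-451a there were 0.596, 0.598 and 0.487 in old libraries, against 0.346, 0.351 and 0.371 in young libraries. For each count of miR-21a-5p there were 0.0760, 0.0503 and 0.0414 in old libraries, against 0.0270, 0.0282 and 0.0327 in young libraries. The groups did not overlap in any of these 3 ratios, and the means were 1.42-fold, 1.57-fold and 1.91-fold higher in old libraries in the same order. They did not overlap against miR-27b-3p or miR-155-5p either, at 1.34-fold and 2.83-fold. Against miR-206-3p, with 0.310, 0.496 and 0.598 in old libraries and 0.290, 0.326 and 0.285 in young libraries, and against miR-133a-3p, with 4.42, 6.68 and 4.41 in old libraries and 5.65, 7.03 and 7.42 in young libraries, the groups overlapped.

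miR-145a-5p behaved less evenly in such ratios. Its groups overlapped against miR-199a-3p with miR-199b-3p, miR-451a, miR-27b-3p and miR-206-3p. They did not overlap, with old higher, against miR-21a-5p and miR-155-5p, with means 1.60-fold and 2.31-fold higher in old libraries. Against miR-133a-3p there were 0.113, 0.124 and 0.111 counts of miR-145a-5p in old libraries, against 0.142, 0.230 and 0.194 in young libraries. All old libraries were below all young ones in that ratio.

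**Figure D5:**
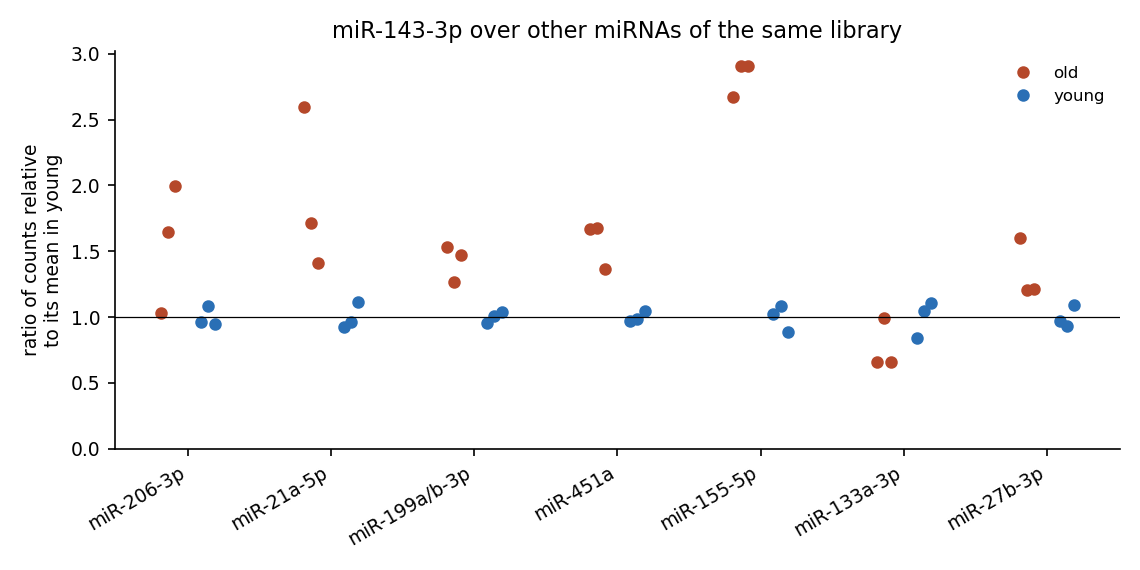
Ratio of raw counts of miR-143-3p to the leading miRNAs of the lists in each library, divided by the mean ratio of the 3 young libraries, on a linear axis from 0, with old left of young over each denominator. Points are libraries and the line at 1 is the young mean. miR-143-3p is higher in all old than in all young libraries over 5 of the 7 denominators, and the groups overlap over miR-206-3p and miR-133a-3p.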

How the data were processed

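The values deposited are raw counts, 1 per mature miRNA locus and library for 6 libraries, made by the authors with featureCounts 2.0.6, per the file headers, after BWA alignment to mm10, per the submitters' processing notes. Per the file headers, no option for strand, multi-mapping reads or overlapping features was set, and 104 of 106 loci that overlap another locus held 0 counts. The sources used here do not give the trimming or the BWA version. Library totals were 904892 to 1417733 in old and 1459826 to 1706396 in young libraries.

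Groups and replicate numbers came from the sample titles. The table pairs no names with its identifiers. Of 2110 loci, 1734 were named by exact RefSeq coordinates (GRCm38.p6), 358 by the GENCODE M21 hairpin that holds them (tolerance 3 bases) and 6 through a copy elsewhere, and 12 stayed unnamed. No sequence is printed for the 4 member arms, because chromosome 18 was left out of the sequences used here. Old was compared with young by edgeR's quasi-likelihood test (edgeR 4.0.16, R 4.3.3) after filterByExpr (minimum count 10, minimum total 15) and TMM scaling, with two-sided p adjusted by Benjamini-Hochberg over 347 loci. DESeq2 1.42.0, other scalings, no filter, summed copies, a replicate block and leaving out each library were alternatives. Correlations used log2(CPM + 0.5). Intervals and the limit for a count of 0 (3 counts) cover counting error only, since reads without molecular identifiers are not independent molecules.

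The members and the miRNA lists were chosen with earlier results of these data known. Named miRNAs were both arms of both hairpins, from each list the 3 most abundant tested miRNAs and any past the threshold, and the 5 loci most alike to each guide; others were named after their values were seen.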

Additional observations from a re-analysis of the deposited data

How the results depend on the processing

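The number of called loci, 15, was 38 when libraries were scaled to totals without miR-21a-5p, 23 with DESeq2's Wald test, 6 with a replicate block, and 5 (without old replicate 2) to 45 (without old replicate 1) when 1 library was left out; the cause was not tested. Of the 15, 14 were among DESeq2's calls and all 15 among the 38. The split of 12 higher and 3 lower loci was 13 and 25 without miR-21a-5p in the totals, 14 and 9 with DESeq2, 8 and 3 with library totals alone, and 11 and 5 with copies summed. Totals without miR-21a-5p moved the median log2 fold change of all loci from 0.04 to -0.06, and miR-143-3p to 0.58 and miR-145a-3p to 0.47. Relative to those medians, miR-143-3p was at 0.67 with TMM and 0.64 with these totals.

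All 3 tested arms kept a positive log2 fold change under every alternative run. Leaving out 1 library gave 0.63 to 0.74 for miR-143-3p, 0.27 to 0.55 for miR-145a-5p and 0.49 to 0.65 for miR-145a-3p. miR-143-3p was not among the called loci with the replicate block, without old replicate 2 or without any 1 young library. The smooth muscle count, 0, was 1 with totals without miR-21a-5p and 0 to 1 when leaving out 1 library. The fibroblast count, 0, was 2 with those totals. The leukocyte count, 1, was 0 with the replicate block and 0 to 2 when leaving out 1 library. The striated muscle count was 3 to 4 and the red blood cell count 0 under every alternative run.

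Old and young libraries share replicate numbers, but same-numbered libraries did not deviate together (r of -0.22, -0.19 and -0.38 over 157 loci). With 3 libraries per group this cannot exclude a pairing by number. With the replicate block miR-143-3p was at 0.71, miR-145a-5p at 0.42 and their difference at 0.28.

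Depth limits miR-143-5p, which had at most 2 counts in a library and is given no fold, and the arm share of Mir145a, which rests on 571 to 897 counts per library.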
